A study of Mus musculus with 10 samples.

Results

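Gene expression of 3 mouse leukaemia lines with a conditional (floxed) Zfx allele was compared with that of 2 lines with the wild-type allele, in cultures that had received vehicle and no inducer of Cre. The members are the 5 arrays whose titles name the floxed or the wild-type genotype together with vehicle, of 10 arrays in all. The fl lines 10949, 10950 and 10986 are Zfx fl/y and the wt lines 10977 and 10980 are Zfx wt/y. All 5 lines are acute myeloid leukaemia (AML) driven by MLL-AF9, and all carry the Cre-ER transgene, a Cre recombinase that tamoxifen activates. Each line is 1 independent primary leukaemia, grown out of cells taken from a moribund mouse. Cultures lasted 72 h, in medium that held 20% serum with SCF (20 ng/mL) and the interleukins IL-3 and IL-6 (10 ng/mL). The vehicle was ethanol, and the matched cultures of the same lines, on the other 5 arrays, received 10 nM 4-hydroxytamoxifen (4-OHT). After culture, cells that carried c-Kit, the SCF receptor, were sorted and their RNA was hybridised. The sources used here do not give the promoter that drives Cre-ER, or the strain and age of the mice. The comparison asks in what the fl and wt leukaemias already differed without induced deletion. Genotype is fixed within a line, so a difference between genotypes and a difference between these particular leukaemias cannot be told apart.

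MLL-AF9 joins the start of the histone methyltransferase MLL to AF9, a partner that recruits the elongation machinery. The fusion keeps self-renewal genes such as Hoxa9 and Meis1 active in myeloid progenitors, which stall between the stem cell and the granulocyte or monocyte. Zfx encodes a zinc finger transcription factor of the X chromosome that haematopoietic and embryonic stem cells need for self-renewal. A floxed allele carries recombination sites around exons and is meant to work normally until Cre removes them.

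Of 15662 genes tested, 3 were lower in the fl lines and 0 were higher in limma's moderated test, at an adjusted p under 0.05. These calls depended on the fit: 0 genes passed with the vehicle arrays alone (smallest limma adjusted p = 0.445), with no level filter (0.0543), with the filter at the 50th percentile (0.0745), with all probe sets tested (0.0803) or with quantile normalization (0.0637). Leaving out the vehicle array of fl line 10950, of wt line 10977 or of wt line 10980 also left 0 (smallest limma adjusted p from 0.123 to 0.692). All 3 were also lower under 4-OHT, in separate cultures of the same lines. These were Trim12a, a tripartite-motif gene of the family that includes retroviral restriction factors, Kcnip3, a calcium sensor that binds potassium channels and DNA, and Megf9, a membrane protein with EGF-like repeats. The first 300 bases around the start of each gene, with Dlk1 as the gene with the largest difference among the higher genes named by rule, are shown because the lines differ at these genes whether or not Cre was induced. The sequences are those of RefSeq on GRCm38.p6, from 250 bases before to 50 after the start, 5′ to 3′ on the strand of the gene, with CG dinucleotides in capitals.
Trim12a: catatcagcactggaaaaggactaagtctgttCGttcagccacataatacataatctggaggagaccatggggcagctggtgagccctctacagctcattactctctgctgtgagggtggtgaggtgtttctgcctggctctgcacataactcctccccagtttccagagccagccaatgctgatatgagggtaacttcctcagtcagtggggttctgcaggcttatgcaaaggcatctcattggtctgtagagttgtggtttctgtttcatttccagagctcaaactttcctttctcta
Megf9: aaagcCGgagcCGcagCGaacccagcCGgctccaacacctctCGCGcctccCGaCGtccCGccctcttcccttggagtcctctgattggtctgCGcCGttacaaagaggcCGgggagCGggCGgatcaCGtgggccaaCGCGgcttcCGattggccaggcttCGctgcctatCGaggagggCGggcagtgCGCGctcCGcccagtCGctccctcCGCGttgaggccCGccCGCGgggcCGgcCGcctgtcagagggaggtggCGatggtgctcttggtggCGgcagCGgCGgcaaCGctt
Kcnip3: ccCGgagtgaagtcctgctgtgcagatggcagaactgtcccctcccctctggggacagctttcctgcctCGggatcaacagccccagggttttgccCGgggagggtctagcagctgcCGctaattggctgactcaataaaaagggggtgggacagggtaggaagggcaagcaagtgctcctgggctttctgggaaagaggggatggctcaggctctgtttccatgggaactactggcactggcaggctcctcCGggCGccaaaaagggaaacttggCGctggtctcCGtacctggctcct
Dlk1: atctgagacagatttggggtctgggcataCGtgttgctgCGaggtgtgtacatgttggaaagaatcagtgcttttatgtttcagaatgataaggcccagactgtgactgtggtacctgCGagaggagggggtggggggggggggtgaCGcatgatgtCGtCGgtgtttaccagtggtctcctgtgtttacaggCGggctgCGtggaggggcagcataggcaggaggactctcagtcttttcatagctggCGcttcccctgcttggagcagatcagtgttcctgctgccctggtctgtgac
The Trim12a window is chr7:104315446-104315745 on the minus strand and holds 1 CG. The Megf9 window, chr4:70534879-70535178 on the minus strand, holds 37. Kcnip3 has 3 listed starts, of which the first in the table is shown, chr2:127522045-127522344 on the minus strand, with 8 CGs. The Dlk1 window is chr12:109452573-109452872 on the plus strand and holds 9. Over 32851 RefSeq promoter windows of this length the median number was 7, with quartiles of 3 and 20, so Megf9 has a CG-rich start and Trim12a a CG-poor one. The palindromic letters AGGCCT, the core of the motif reported for Zfx, were in none of these 4 windows (0 of 4) and in 10.3% of all of them.

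The arrays are described before the values because 2 of them stood apart. Levels are log2 of the deposited RMA signal, and a difference is always fl minus wt on that scale. Median signals of the 5 vehicle arrays lay between 147.6 and 158.2. The vehicle array of fl line 10986 had a log2 interquartile range of 2.67, against 2.92 to 3.06 on the other 4. It had 148 genes more than 1 below all 4 others, where no other vehicle array had over 3 such genes. Pairs of vehicle arrays that include it differed by an SD of 0.371 to 0.575 over the genes, and pairs without it by 0.230 to 0.363. The smallest of these, 0.230, was between the 2 wt lines and the next, 0.258, between fl line 10949 and wt line 10977.

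The 2 arrays of wt line 10980 went against their treatment labels. In the other 4 lines, 25 genes moved one way by more than 0.5 from vehicle to 4-OHT in all 4, and in line 10980 the number that moved the same way by more than 0.5 was 0 of 25 and the opposite way 19 of 25. Over the 15662 genes, its change correlated with the mean change of the other 4 lines at r = -0.42, with the arrays of each line sharing their cells. The same r was 0.52 for fl line 10949, 0.4 for 10950, -0.09 for 10986 and -0.03 for wt line 10977. So lines 10986 and 10977 did not follow the rest by this measure either. Thbs1, which encodes thrombospondin, was at 7.66 on the vehicle and 11.34 on the 4-OHT array of line 10980. In the other 4 lines Thbs1 was at 9.46 to 11.54 under vehicle and at 7.47 to 8.91 under 4-OHT. Both arrays carried a mark of their line: Adgrg7, an orphan adhesion receptor, was at 10.16 and 10.05 on the 2 arrays of line 10980 and at 6.19 to 6.35 on the other 8. Results are therefore also given without this array, and against all 4 wt arrays of either treatment, a count that no exchange within a wt line can alter.

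**Figure D1:**
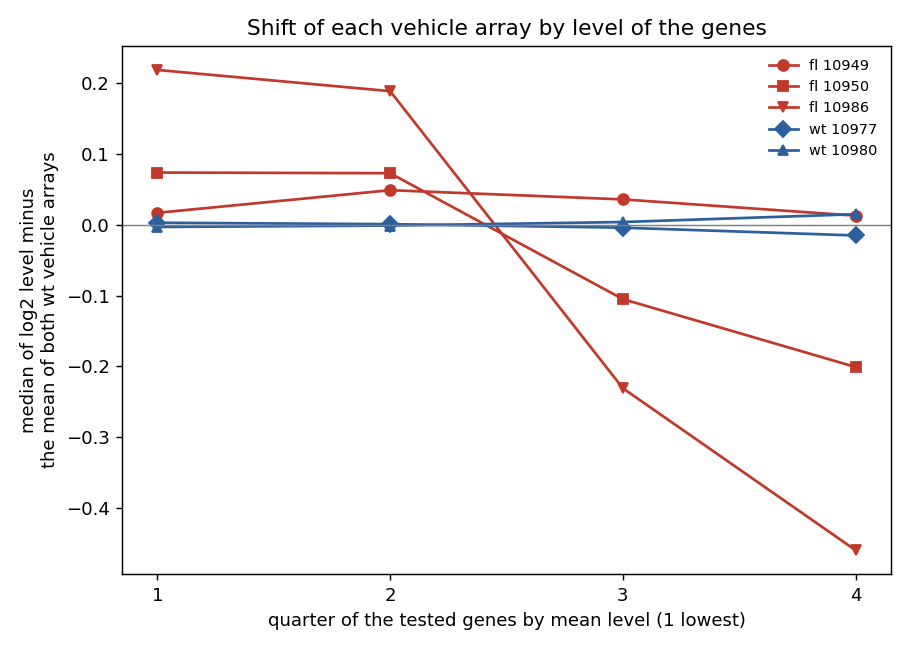
Median over the genes of each quartile of log2 level minus the mean of both wt vehicle arrays (y axis), by quartile of mean level (x axis), for each vehicle array. Line 10986 runs from 0.22 in the lowest quartile to -0.46 in the highest, line 10950 from 0.07 to -0.20, and line 10949 stays between 0.01 and 0.05.

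This shape bears on every count below. Among all genes tested, the 3 fl arrays lay above both wt arrays for 18.6% and below both for 12.1%, and these shares serve as the background for gene lists. They changed with the level of the gene. In the lowest quartile of mean level 29.1% were higher and 2.09% lower, and in the highest quartile 4.80% were higher and 21.9% lower. Without the array of line 10986 the background was 22% higher and 15.6% lower, and without the wt array of line 10980 it was 27.1% and 18.8%. Such shares can only stay or grow when an array is left out, so lists are given without an array by their medians. Against all 4 wt arrays, which is a stricter demand, 7.83% lay above and 6.52% below. Weakly expressed genes thus leaned to the higher and strongly expressed genes to the lower side, as the plot of each vehicle array by level of the genes shows.

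Trim12a was at 6.0, 5.59 and 5.33 in fl lines 10949, 10950 and 10986 and at 7.56 and 8.11 in wt lines 10977 and 10980. The lowest wt array stood 1.55 above the highest fl array. The difference was -2.19 (SE 0.21, limma adjusted p = 0.0421), a 4.58-fold lower signal. The passing genes made up 0.0192% of the genes tested in this direction. The fl values lie below the filter level of 6.23, where signal and array background are hard to separate, so the size of this difference is uncertain. Under 4-OHT the levels were 5.96, 5.65 and 5.62 against 7.59 and 7.61.

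Kcnip3 was at 7.74, 7.50 and 7.51 in the fl lines and at 9.47 and 9.19 in the wt lines. The groups did not overlap, and the difference of -1.75 (SE 0.19, limma adjusted p = 0.0421) is a 3.37-fold lower signal. Under 4-OHT it was at 7.91, 7.91 and 7.50 against 9.19 and 8.64, a difference of -1.14 (limma adjusted p = 0.0436).

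Megf9 gave 8.75, 8.76 and 8.78 in the fl lines and 9.64 and 9.80 in the wt lines. The 3 fl arrays agreed within 0.03, including the array that stood apart. The difference was -0.95 (SE 0.10, limma adjusted p = 0.0421) under vehicle and -1.01 (limma adjusted p = 0.0078) under 4-OHT. An interaction test asked whether the genotype difference differed between the 2 kinds of culture. None of these 3 genes passed it (limma adjusted p from 0.906 to 0.967), and 0.00638% of all genes did. So few passed that this does not show equal differences. For Kcnip3 the vehicle difference minus that under 4-OHT was -0.61 (SE 0.24).

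Without the wt array of line 10980 the plain differences of means were -1.92 for Trim12a, -1.89 for Kcnip3 and -0.87 for Megf9, and no gene passed, with 1 wt array left. Without the vehicle array of line 10986 they were -2.04, -1.71 and -0.96. In that fit 3 genes were lower and 3 higher at the threshold, with Trim12a (limma adjusted p = 0.0259) and Kcnip3 (0.0439) among them and Megf9 (0.0687) not. All 3 fl vehicle arrays lay below all 4 wt arrays for each of the 3 genes, as for 6.52% of all genes.

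**Figure D2:**
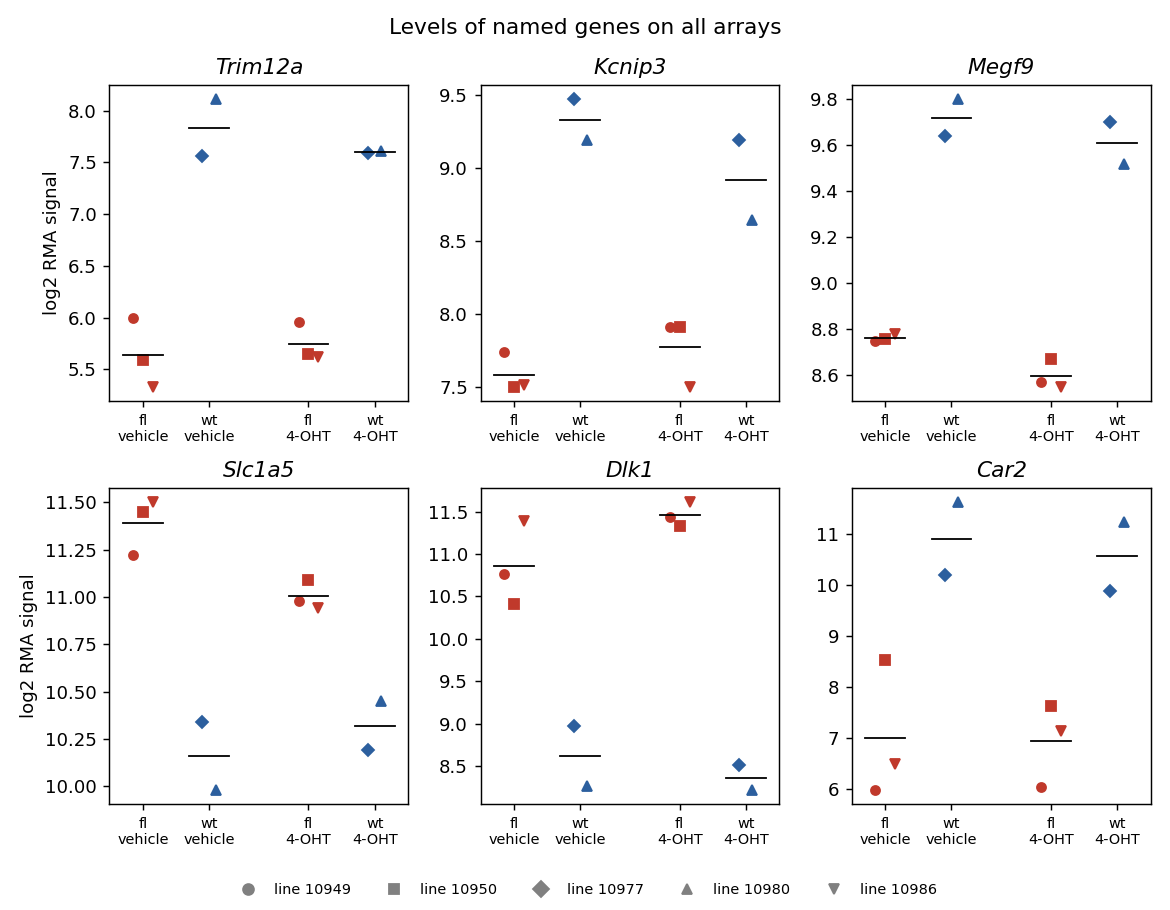
Log2 RMA signal (y axis) of 6 genes on each of the 10 arrays, by group (x axis), with fl lines in red, wt lines in blue, a symbol for each line and a bar for the group mean. In every panel the 3 fl and 2 wt arrays of a treatment do not overlap.

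Of the 7 tested genes of the Trim12 and Trim30 cluster, Trim12a included, 4 (57.1%) were lower and 0 higher with no overlap, against 12.1% and 18.6% of all genes. Below all 4 wt arrays lay 2 of the 7, against 6.52% of all genes. Of 21 tested neighbours of Trim12a within 12 named genes on each side, Trim6 (-0.55) and Trim30d (-0.31) were lower with no overlap. Ubqln5 (0.31) and Olfr653 (0.17) were higher with no overlap. None of these passed the threshold, and over all genes 12.1% were lower and 18.6% higher, so the neighbours as a group did not lean lower. Trim12c, the adjacent relative of Trim12a, was at 7.52, 6.63 and 6.04 in the fl lines and at 6.38 and 6.82 in the wt lines, so its groups overlapped. Near-identical copies occur in this cluster, and probes that match several of them could mix their signals. Around Megf9 and Kcnip3 the differences of the tested neighbours ran from -0.57 to 0.28 and from -0.59 to 0.42.

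The named genes were those past the threshold with no overlap between groups, filled up to 10 in each direction with the smallest unadjusted p. Unadjusted p was under 0.05 for 581 genes in the higher direction (3.71%) and 958 in the lower (6.12%). The 10 higher genes had limma adjusted p of 0.081 to 0.174, so none passed, and the 7 further lower genes 0.124 to 0.13. All 20 lay beyond all 4 wt arrays, where 7.83% of all genes were higher and 6.52% lower. No overlap with the wt vehicle arrays was part of the choice, so only the wt 4-OHT arrays, of the same lines, could have changed this. Under 4-OHT, 9 of the 10 higher and 10 of the 10 lower genes had the same direction, and 4 and 8 of them passed there, where 0.185% of all genes passed higher and 0.46% lower. The group means of the 2 comparisons share no array, but they come from the same 5 leukaemias. The spread was estimated once from all 10 arrays and enters both sets of p-values. Passing in both is therefore not independent.

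Slc1a5, the glutamine and neutral amino acid exchanger ASCT2, was at 11.22, 11.45 and 11.50 in the fl lines and at 10.34 and 9.98 in the wt lines. That is a difference of 1.22 (SE 0.15, limma adjusted p = 0.081), or 2.34-fold, which missed the threshold. Slc1a3, a glutamate and aspartate transporter of the same family, was at 8.02, 8.03 and 7.91 against 7.34 and 7.37. Its difference was 0.64 under vehicle (limma adjusted p = 0.157) and 0.87 under 4-OHT (limma adjusted p = 0.0171).

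Dlk1, a Notch-related membrane protein expressed from the paternal chromosome, was at 10.77, 10.41 and 11.39 in the fl lines and at 8.97 and 8.27 in the wt lines. The groups lay 1.44 apart at their nearest arrays. The difference was 2.24 (SE 0.28, limma adjusted p = 0.081), a 4.71-fold higher signal, and under 4-OHT 3.10 (limma adjusted p = 0.00739). Without the vehicle array of line 10986, Dlk1 passed, at 2.01 (limma adjusted p = 0.0363). It did not pass without that of line 10949 (limma adjusted p = 0.0648) or 10950 (0.219), or with the vehicle arrays alone (0.524). With the array of wt line 10977 or 10980 left out, the difference was 2.56 or 1.91.

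Fnbp1l, an F-BAR protein that links membrane curvature to actin, was at 10.84, 10.78 and 10.07 against 9.31 and 9.25. Its difference was 1.28 under vehicle (limma adjusted p = 0.155) and 1.30 under 4-OHT (limma adjusted p = 0.0407). Mical3, an oxidoreductase that acts on actin, was 1.03 higher by its brightest probe set and 0.32 by its second, and Ppfibp1, the adaptor liprin-beta-1, 0.62 higher. Dock1, an activator of the small GTPase Rac, was at 8.46, 8.51 and 8.56 against 9.39 and 9.53, a difference of -0.95 (limma adjusted p = 0.127). Under 4-OHT Dock1 passed at -0.82 (limma adjusted p = 0.0436).

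The other higher genes were Rprl2, which resembles the RNase P RNA (0.86), Parp3, a DNA break repair enzyme (0.80), 4930577N17Rik (0.50) and 5730408K05Rik (0.79). The last 2 did not show the difference under 4-OHT, at 0.02 and -0.07.

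Among the lower genes, St6galnac2, a sialyltransferase of O-linked glycans, was at 8.47, 8.69 and 8.32 in the fl lines and at 9.87 and 10.38 in the wt lines. The difference was -1.63 (SE 0.23, limma adjusted p = 0.124) and under 4-OHT -1.31 (limma adjusted p = 0.0497). Gch1, the first enzyme of tetrahydrobiopterin synthesis, differed by -0.99. Pcyt1a, the regulated enzyme of phosphatidylcholine synthesis, differed by -0.97 under vehicle and by -0.17 under 4-OHT, where its fl values of 9.14, 8.81 and 9.11 reached close to the wt values of 9.21 and 9.18. Bcl2a1c, of a family of anti-apoptotic genes with near-identical copies, differed by -1.06, 1600014C10Rik by -0.84 and Mansc1 by -0.86.

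**Figure D3:**
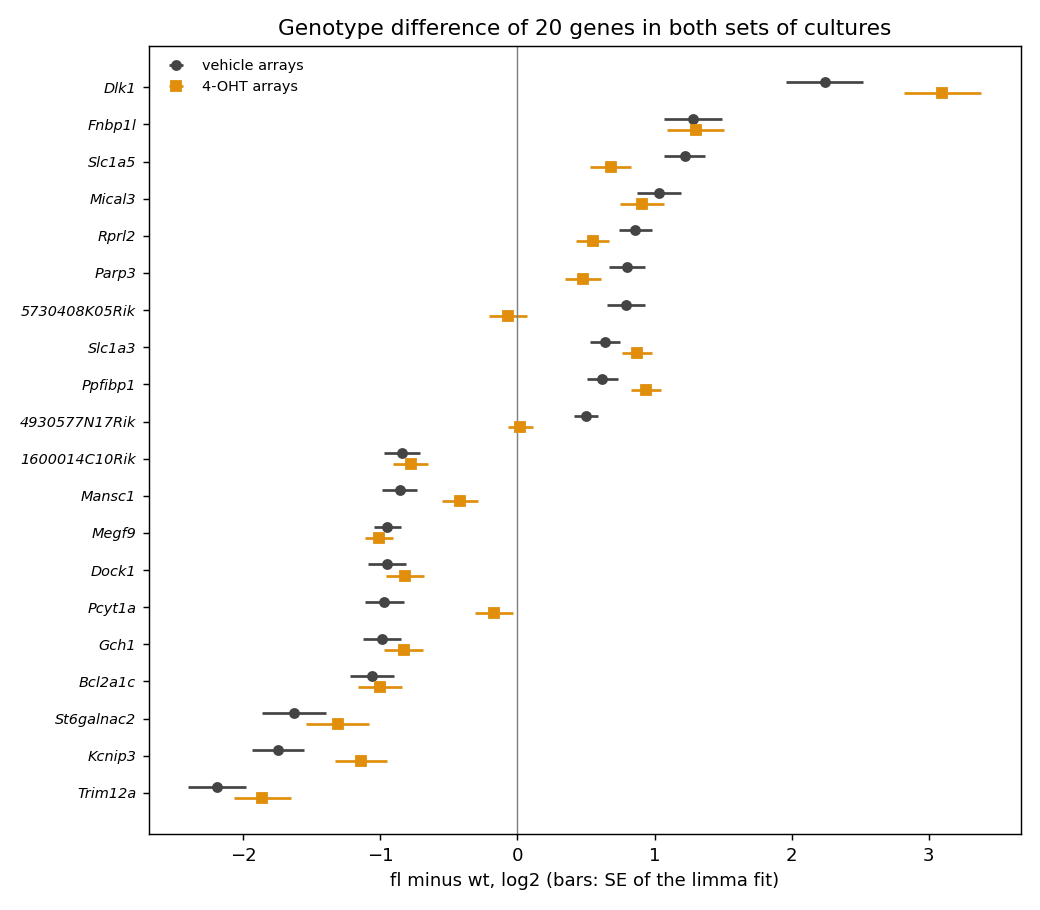
Difference fl minus wt on the log2 scale (x axis, bars are the SE of the limma fit) for the 20 genes named by rule (y axis), on the vehicle arrays (circles) and on the 4-OHT arrays (squares). For 19 of the 20 genes both symbols lie on the same side of 0, with Pcyt1a and the 2 Rik genes 4930577N17Rik and 5730408K05Rik near 0 under 4-OHT.

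The genes called between fl and wt lines under 4-OHT were also read in the vehicle cultures of the same lines. Those calls used a spread estimated from the vehicle and 4-OHT arrays together, which favours genes whose vehicle arrays agree within a genotype. The lines are also the same, so the shares of these genes without overlap under vehicle are not independent of the calls. Of the 29 genes higher under 4-OHT, 27 had the same direction under vehicle and 23 (79.3%) had no overlap there, against 18.6% of all genes, with a median difference of 0.50 under vehicle and 1.13 under 4-OHT. Of the 72 lower genes, 67 had the same direction and 52 (72.2%) no overlap, against 12.1% of all genes, and 1 was apart the opposite way. Their medians were -0.35 under vehicle and -0.89 under 4-OHT. Unadjusted p under vehicle was under 0.05 for 16 of the 29 and 41 of the 72, and 3 of all these genes passed there.

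Several of these genes were lower in the fl lines before induction and lower again after it. Zmynd11, a reader of methylated histone H3, was at 8.39, 9.04 and 8.53 against 9.39 and 9.64 under vehicle, and at 7.29, 7.61 and 7.27 against 9.31 and 9.94 under 4-OHT. Cibar1 differed by -0.74 under vehicle and -2.33 under 4-OHT, Lrrc41 by -0.73 and -2.05, and Dis3l, an exosome ribonuclease, by -0.48 and -1.72. Ext2, a heparan sulfate polymerase subunit, had no such difference under vehicle (0.03, against -1.17 under 4-OHT). None of these 5 was past the threshold under vehicle.

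Zfx itself was at 10.09, 9.63 and 9.24 in the fl lines and at 10.12 and 10.07 in the wt lines. Line 10949 lay within the wt range, and the lowest value was on the array of line 10986. The difference was -0.45 (SE 0.21, limma adjusted p = 0.515), and -0.24 without that array. Under 4-OHT Zfx differed by 0.05, so this probe set did not show the deletion, and the sources used here do not say where its probes lie relative to the floxed exons. Of 22 tested genes among the 25 named genes on each side of Zfx on the X chromosome, 2 (9.09%) were higher and 5 (22.7%) lower with no overlap. Over all genes these shares were 18.6% and 12.1%, and none of the 22 passed. Their median was -0.25, and -0.06 without the array of line 10986, against 0.03 and 0.01 over all genes. Eif2s3x, a translation factor gene next to Zfx, was at 12.78, 12.54 and 12.13 against 12.83 and 12.95. Over the 399 tested genes of the X chromosome, 12.3% were higher and 14.0% lower.

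Immediate early genes, which encode transcription factors and feedback regulators switched on within minutes of growth factor or stress signals, were higher in the fl lines. Of 23 tested, 16 (69.6%) were higher and 0 lower with no overlap, against 18.6% and 12.1% of all genes. The median difference was 0.41. None passed the threshold, the smallest limma adjusted p being 0.268. By mean level, 3 of the 23 are in the lowest quartile, 8 in the second, 11 in the third and 1 in the highest, and the shares of all genes that were higher there were 29.1%, 28.7%, 11.8% and 4.80%. Of the 23, 15 lay above all 4 wt arrays, against 7.83% of all genes. The median was 0.25 without the array of line 10986 and 0.42 without the wt array of line 10980.

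Jun, the AP-1 subunit, was at 9.79, 10.15 and 10.53 in the fl lines and at 8.32 and 8.16 in the wt lines. That is a difference of 1.91 (SE 0.41, limma adjusted p = 0.268), and its fl and wt values did not overlap. Under 4-OHT Jun was at 8.44, 9.46 and 8.68 against 8.06 and 9.35, so the groups overlapped there. Zfp36, which promotes decay of AU-rich mRNAs, was at 9.68, 9.77 and 10.22 against 8.90 and 8.57, and under 4-OHT it differed by 1.09. Junb (0.75), Jund (0.85), Fos (0.51), Fosb (0.57), Ier2 (0.83), Ier3 (0.95) and Btg2 (0.95), an antiproliferative gene, were also higher with no overlap. Klf6 and Atf3 gave 0.01 and -0.03. Under 4-OHT, 10 of the 23 were higher with no overlap and 5 were so in both, where 12.6% and 4.28% of all genes were, with 0 lower under 4-OHT against 14.2%.

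Replication-dependent histone genes, transcribed in S phase into mRNAs without a poly(A) tail, were the other group on the higher side. Of 11 tested in the histone list, which also holds variants, 7 (63.6%) were higher and 0 lower with no overlap. Of all genes 18.6% were higher and 12.1% lower. The median of the list was 0.73. None passed, with the smallest limma adjusted p 0.247. Of the 11, 4 are in the second quartile of mean level, 2 in the third and 5 in the highest. H3c4 was at 9.55, 10.85 and 10.53 in the fl lines and at 8.49 and 8.52 in the wt lines, a difference of 1.80 (SE 0.38, limma adjusted p = 0.247). H1f2, a linker histone, was at 9.94, 10.85 and 10.78 against 9.29 on both wt arrays. The lowest fl value was that of line 10949 for both genes. Histone genes have near-identical copies, so the assignment to a single gene is uncertain.

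The variants H2az1 and H3f3a, which are made outside S phase too, differed by -0.12 and 0.14. H3f3a was weak on the vehicle arrays, at 6.91 to 7.42. The variant H2ax differed by 0.85 with no overlap under vehicle, and by -0.79 with no overlap under 4-OHT. The S phase list, of replication and nucleotide synthesis genes, had a median of -0.22, with 1 of 19 higher and 4 lower. The mitosis list had -0.12, with 1 of 21 higher and 2 lower, against 18.6% and 12.1% of all genes. Without the array of line 10986 the histone median was 0.71. Against all 4 wt arrays 3 of 11 were higher, where 7.83% of all genes were. Under 4-OHT the histone median was 0.14, and 2 of 11 were higher with no overlap in both cultures, where 4.28% of all genes were.

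Genes of the primary granules and of early granulocytes, the products of promyelocytes, were lower in the fl lines. Of 13 tested, 8 (61.5%) were lower and 1, Cebpa, higher with no overlap, against 12.1% and 18.6% of all genes. The median was -0.40. None passed, the smallest limma adjusted p being 0.343. In bulk RNA, fewer cells of a type and less RNA per cell cannot be told apart. Of the 13 genes, 10 are in the highest quartile of mean level, where 21.9% of all genes were lower.

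Mpo, the myeloperoxidase of primary granules, was at 11.99, 11.92 and 11.99 in the fl lines and at 12.92 and 13.38 in the wt lines. The difference was -1.18 (SE 0.31, limma adjusted p = 0.343), or 2.27-fold, and under 4-OHT -1.37. Csf3r, the G-CSF receptor, was at 8.36, 7.70 and 7.68 against 8.90 and 8.77. Ms4a3, a surface protein of granulocyte and monocyte progenitors, was at 13.31, 12.79 and 12.75 against 13.43 and 13.78. The transcription factors of granulocyte maturation Cebpe and Gfi1 differed by -0.40 and -0.41 with no overlap, and under 4-OHT both passed, at -0.81 (limma adjusted p = 0.0218) and -0.95 (limma adjusted p = 0.0436). Elane, neutrophil elastase, differed by -0.38, while Ctsg and Calr gave -0.07 and -0.08. The median of the list was -0.39 without the array of line 10986 and -0.37 without the wt array of line 10980. Of the 13, 6 lay below all 4 wt arrays, against 6.52% of all genes, and 6 were lower in both cultures, where 5.27% of all genes were.

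**Figure D4:**
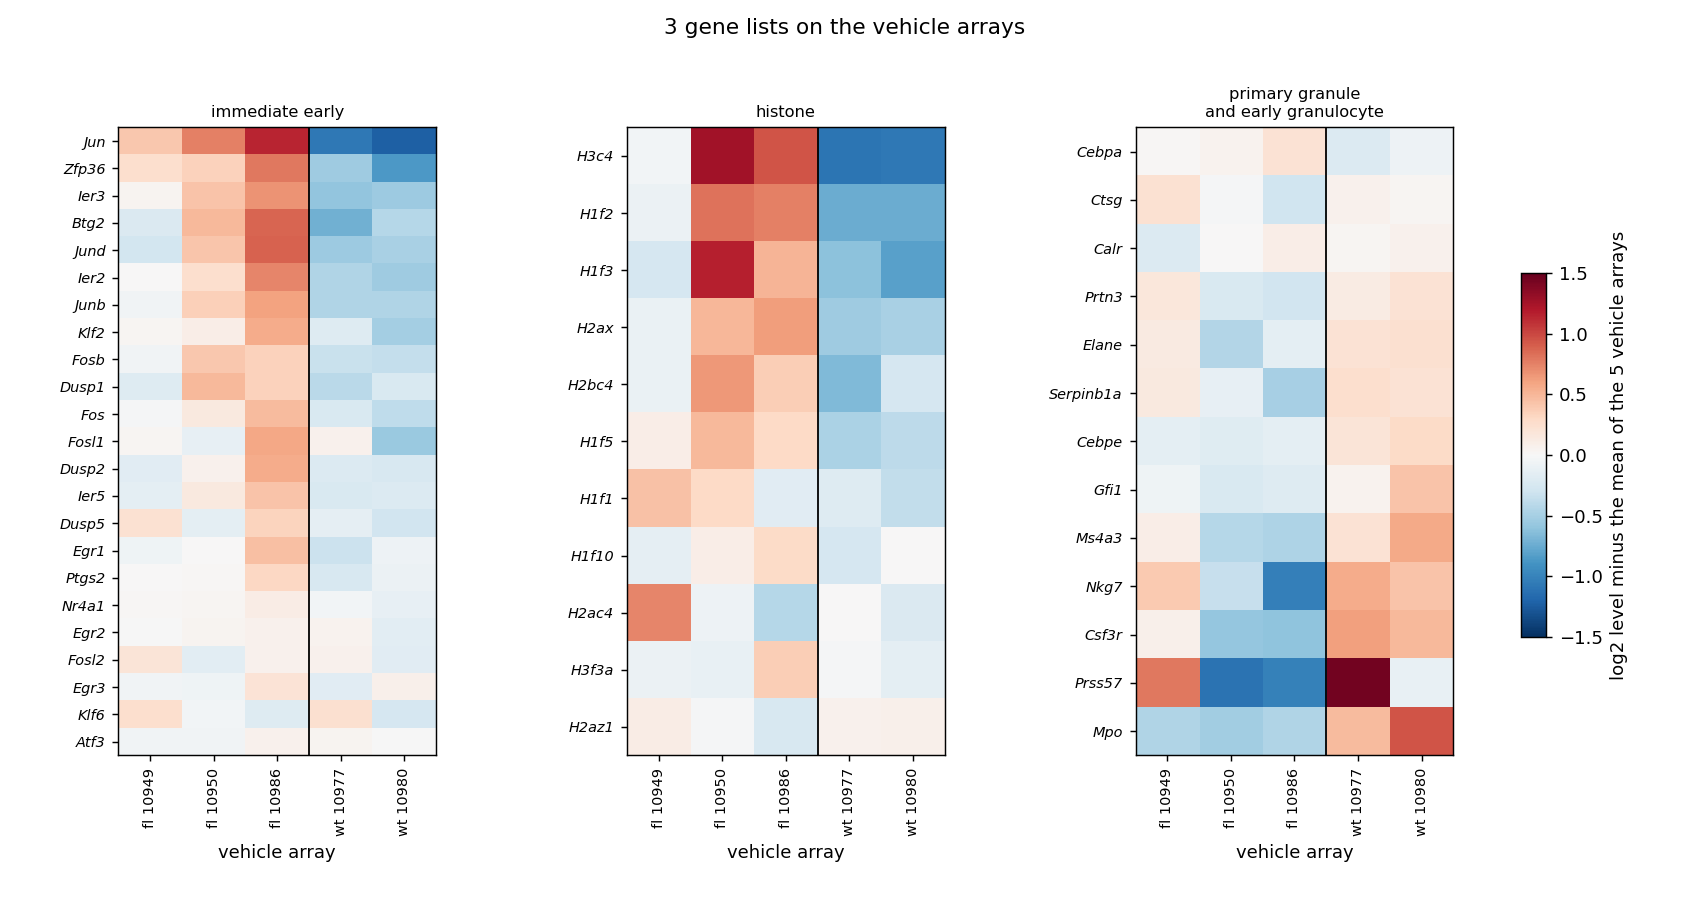
Log2 level minus the mean of the 5 vehicle arrays (colour) for the tested members of the immediate early, histone and primary granule lists (rows) on each vehicle array (columns, fl lines left of the black line), sorted by the difference. Jun and H3c4 stand at the top with 1.91 and 1.80, Mpo at the bottom with -1.18, and fl line 10949 is the palest of the fl columns for most histone genes.

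Markers of later maturation gave smaller shares. Of 17 tested late granulocyte genes, 5 (29.4%) were lower and 0 higher with no overlap, against 12.1% and 18.6% of all genes. The median was -0.33. Cd177, a neutrophil surface protein, was at 7.45, 7.61 and 7.51 against 8.65 and 8.74. Ngp, a secondary granule protein, spread from 8.94 to 11.19 in the fl lines and was at 12.83 and 11.40 in the wt lines. Ltf, lactoferrin, was near the filter level on all 5 arrays, at 6.28 to 6.49.

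Of 26 monocyte and macrophage genes, 4 (15.4%) were higher and 6 (23.1%) lower with no overlap, against 18.6% and 12.1% of all genes. F13a1, a coagulation factor of monocytes, was at 7.63, 7.77 and 7.58 against 9.52 and 8.78, a difference of -1.49 (limma adjusted p = 0.366). Lyz2, lysozyme, was at 11.09, 9.79 and 8.50 against 11.41 and 11.91, and under 4-OHT it differed by 0.28. Csf1r, the M-CSF receptor, differed by -0.47. Irf8, a transcription factor of the monocyte and dendritic lineage, was in contrast higher, at 9.06, 9.11 and 9.48 against 8.86 and 8.17, and it passed under 4-OHT at 1.56 (limma adjusted p = 0.0436).

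The sorted receptor itself did not separate the genotypes, since Kit was at 8.35, 8.90 and 8.81 in the fl lines and at 8.48 and 9.79 in the wt lines. Prom1, a progenitor surface glycoprotein, was at 8.35, 7.32 and 7.51 against 9.04 and 9.58, a difference of -1.58 (limma adjusted p = 0.247). Flt3, a receptor of progenitors, was at 7.75, 6.76 and 6.72 against 6.53 and 6.60. Cd34, of the stem and progenitor surface list, was at 10.90, 11.90 and 9.17 against 8.41 and 10.95, so its groups overlapped. In this list 1 of 9 genes was higher and 1 lower, against 18.6% and 12.1% of all genes. Its median was 0.31, against 0.03 over all genes, and 0.61 without the array of line 10986. Under 4-OHT 6 of the 9 were higher and 1 lower with no overlap, against 12.6% and 14.2% of all genes.

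The erythroid and megakaryocyte list held a gene with a very large spread between lines. Car2, carbonic anhydrase, was at 5.99, 8.53 and 6.50 in the fl lines and at 10.19 and 11.62 in the wt lines. The groups did not overlap, and the difference of -3.90 (SE 0.76, limma adjusted p = 0.235) missed the threshold, with a range of 2.54 among the fl lines. The lowest fl value lies below the filter level of 6.23, so the size of the difference is uncertain. Under 4-OHT it was -3.61. The erythroid regulators Gata1 and Klf1 were at 6.64 to 7.41 on the 5 arrays. The list had a median of 0.08 with 1 of 11 higher and 3 lower, against 18.6% and 12.1% of all genes.

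Markers of other cell types were read on the same arrays. Cd3e, of the T cell receptor complex, was at 6.92 to 7.33 on the vehicle arrays, Cpa3 of mast cells at 6.51 to 9.06 with the highest value in line 10950. Mcpt8, a basophil protease, was at 10.54, 9.54 and 8.04 in the fl lines and at 10.64 and 9.66 in the wt lines, so the groups overlapped. Among stromal genes Col1a1 was at 8.12 to 8.54 and Acta2, smooth muscle actin, at 8.31 to 9.03. Of 9 stromal and endothelial genes 4 (44.4%) were higher, by 0.16 to 0.24, against 18.6% of all genes. Above all 4 wt arrays lay 0 of 9, against 7.83% of all genes. Their part in the results was not tested.

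The programme of genes that the MLL fusion drives gave shares near those of all genes, and closeness of the genotypes was not tested. Of its 19 tested genes, 2 (10.5%) were higher and 3 (15.8%) lower with no overlap, against 18.6% and 12.1% of all genes. The median was 0.17, against 0.03 over all genes. Hoxa9 differed by 0.23 and Meis1 by -0.13. Pbx3, a homeobox cofactor of Hoxa9 and Meis1, was at 11.82, 12.21 and 12.09 against 10.73 and 11.57, and Jmjd1c, a chromatin cofactor, differed by 0.51. Eya1, a phosphatase and coactivator that the fusion also drives, was at 11.77 to 12.16 in 4 lines and at 8.64 in fl line 10986. The low Eya1 level recurred at 9.22 in the 4-OHT culture of that line.

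Genes of cholesterol synthesis were higher in 6 of 16 (37.5%) and lower in 0 of 16, against 18.6% and 12.1% of all genes. Their median was 0.19. Insig1, a sensor of the sterol pathway, was at 11.47, 11.53 and 11.46 against 10.63 and 10.30, a difference of 1.02 (limma adjusted p = 0.325). This list rests on wt line 10980, since without its vehicle array the median was 0.04. Glycolysis and hypoxia genes were higher in 5 of 19 (26.3%, against 18.6% of all genes), and 1 of 19 lay above all 4 wt arrays, against 7.83%. Their median was 0.19, and 0.09 without the wt array of line 10980, with Pkm, pyruvate kinase, at 12.21, 12.39 and 12.82 against 11.83 and 11.95.

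Targets of p53 were lower in 6 of 17 (35.3%) and higher in 1 (5.88%), against 12.1% and 18.6% of all genes. Their median was -0.37, and these also rest on line 10980. Trp53inp1 was at 8.41, 8.77 and 8.64 in the fl lines, at 9.36 in wt line 10977 and at 10.95 in wt line 10980. On the 4-OHT arrays Trp53inp1 was at 9.90 to 10.40 in the other 4 lines and at 8.50 in line 10980. Mdm2, the ubiquitin ligase of p53, was at 9.88, 9.96 and 9.57 against 10.29 and 10.77. Without the wt vehicle array of line 10980 the median of the list was -0.15, and 1 of 17 lay below all 4 wt arrays, against 6.52% of all genes.

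**Figure D5:**
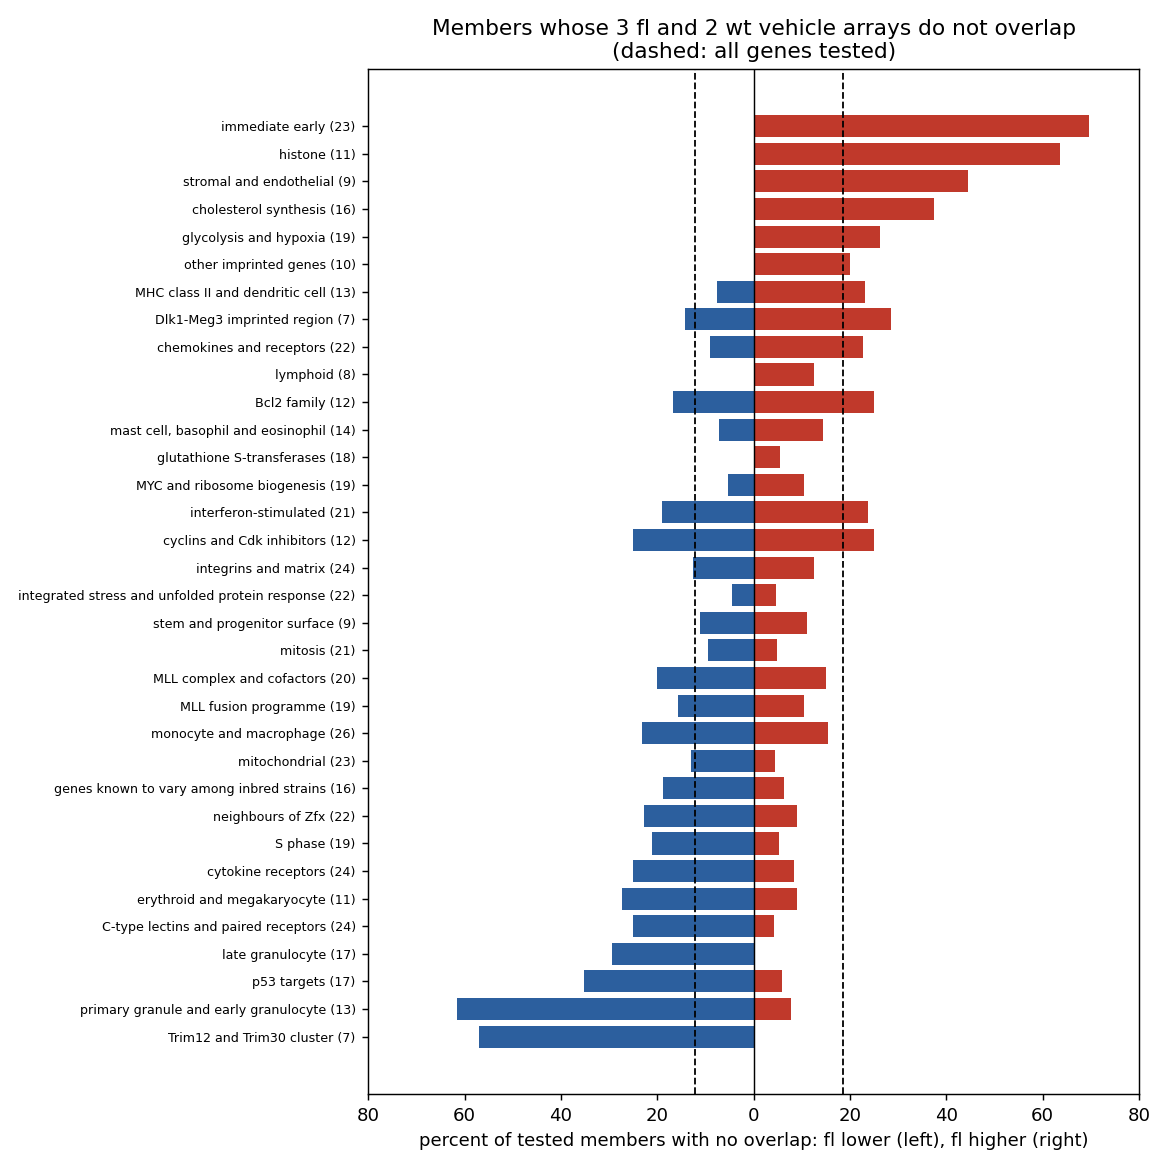
Percent of the tested members of each plotted gene list (y axis, number tested in parentheses) whose 3 fl vehicle arrays all lay above (red, right) or all below (blue, left) both wt vehicle arrays (x axis), with dashed lines at 18.6% and 12.1%, the shares over all genes. Lists with few tested members are not plotted. Among those plotted, immediate early (69.6%) and histone genes (63.6%) extend farthest to the right, and primary granule (61.5%) and Trim cluster genes farthest to the left.

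Noncoding genes of the Dlk1 region were also read. Meg3, a maternally expressed long RNA, was at 8.26, 7.99 and 10.13 in the fl lines and at 7.56 and 7.57 in the wt lines. DQ267102 of the same chromosome was at 11.36, 10.04 and 12.86 against 8.69 and 8.32, a difference of 2.91 (limma adjusted p = 0.366), and 2.19 without the array of line 10986. Both lay above both wt arrays in all 3 fl lines. Rian, another RNA of the Meg3 region, was at 6.37, 6.53 and 7.58 against 6.45 and 6.0, so its groups overlapped. In each of these 3 the array of line 10986 was the highest, and its 4-OHT array was too, with Meg3 at 11.17. Of 7 tested genes of the region, 2 were higher and 1, Wars, lower. Of 10 other imprinted genes 2 were higher and 0 lower, with a median of 0.01. Over all genes 18.6% were higher and 12.1% lower.

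Single lines carried genes of their own, so the spread between leukaemias of 1 genotype was large for some genes. Frzb, a secreted Wnt antagonist, was at 10.10 in fl line 10950 and at 6.12 to 6.38 in the other 4, and at 10.06 in the 4-OHT culture of line 10950. Car4, a membrane carbonic anhydrase, was at 12.10 in fl line 10986 and at 8.01 to 9.03 elsewhere. Xlr, an X-linked gene of lymphoid cells, was at 5.53 in the same line and at 8.93 to 10.05 in the other 4. Skida1 was at 9.85 in fl line 10949, against 6.19 to 7.03, and Ugt8a, a galactosyltransferase of myelin lipids, at 10.62 in wt line 10980, against 6.66 to 7.09. The last 4 stood apart again in the 4-OHT culture of their line, at 12.27 for Car4, 5.47 for Xlr, 8.98 for Skida1 and 10.49 for Ugt8a. These genes were chosen after their values were seen.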

How the data were processed

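RNA was measured on 10 biotin-labelled 1-colour arrays. The deposited values are a linear intensity per probe set produced by the authors' RMA step, which the submitters' processing notes name without software or version. Per the labels' protocols, Trizol gave total RNA, and the Ambion WT kit labelled 200 ng of it. Arrays have no read depth, so their number limits the precision (median SE 0.144).

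Log2 was taken of the intensity values. Of 35556 probe sets, 23410 are annotated, of which 21789 carry 1 symbol and 1621 several, while 12146 have no annotation here. Of those with 1 symbol, 21698 had their Entrez identifier in the RefSeq table of GRCm38.p6. The brightest probe set with 1 symbol stood for a gene (19938 genes), and 15662 with a mean of at least 6.23, the 25th percentile of probe sets, were tested. Group means were fitted on all 10 arrays with limma 3.58.1 (R 4.3.3), the line as a random block (statmod 1.5.0, correlation 0.165), and two-sided moderated tests at 0.05 after Benjamini-Hochberg adjustment across every gene tested. Residual degrees of freedom were 6, and 8.777 with the prior. They count both arrays of a line, though genotype varies only between the 5 lines. With the vehicle arrays alone they were 3, and the smallest limma adjusted p was 0.445. The correlation ran from -0.314 without the vehicle array of fl line 10949 to 0.534 without that of fl line 10986. The block follows from the design, as each line gave 1 vehicle and 1 4-OHT culture. The fit was tested on simulated data. The sources used here do not say whether arrays were processed in batches.

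Named genes were up to 15 passing genes each way without overlap, filled to 10 by smallest p, with Zfx, Kit, sex-linked check genes, Idh2 and Ptpmt1, and the 2 members with the largest difference of each of 36 lists. Other genes were chosen after their values were seen. Members and lists were chosen with earlier results of these data known. Lists are given by counts and medians, with no set test. Alternatives covered the block, samples, filter, probe sets, scaling, weights, prior and each vehicle array left out. The counts without 1 array and against all 4 wt arrays were added after the data were seen.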

Additional observations from a re-analysis of the deposited data

Results flagged for a closer look

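Npepl1, a predicted aminopeptidase gene, was the 1 gene (0.00638% of those tested) whose genotype difference differed between the 2 kinds of culture in the interaction test of limma. It was at 10.68, 10.56 and 10.65 in the fl lines and at 10.48 and 10.50 in the wt lines under vehicle, a difference of 0.14 (SE 0.11, limma adjusted p = 0.559). Under 4-OHT it was at 8.69, 8.92 and 8.63 against 10.52 and 10.49, a difference of -1.76 (limma adjusted p = 0.00116). The difference of the 2 was 1.90 (limma adjusted p = 0.00541). With the line as a fixed block, 0 genes passed this test (smallest limma adjusted p = 0.198).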

How the results depend on the processing

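Against 3 genes lower and 0 higher under vehicle, the fit with no replicate block gave 2 lower and 0 higher. The number of genes passing the interaction test was 1 without the block, as in the main fit. With the line as a fixed replicate block it was 0 (smallest limma adjusted p = 0.198, unadjusted p under 0.05 for 435 higher and 477 lower). The lower count was 0 with the vehicle arrays alone, with and without the array of line 10986 (smallest limma adjusted p 0.445 and 0.334), with no level filter, with the 50th percentile, with all probe sets and with quantile normalization. Array weights gave 844 higher and 1652 lower. They put 4.687 on the vehicle array of fl line 10950 against 0.317 and 0.23 on the other 2 fl arrays, so this fit follows 1 array. Mean of probe sets and median centring gave 3 lower, and adding 32 or a robust trended prior 2. Leaving out 1 vehicle array gave 0 to 3 lower and 0 to 3 higher: 0 either way without fl 10950, wt 10977 or wt 10980, 2 lower and 1 higher without fl 10949, and 3 and 3 without fl 10986.

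Of 94 named genes, 85 kept their direction in each of the 16 or 17 alternatives that tested them. Eya1 turned to 0.05 and Cd3e to -0.00 with the vehicle arrays alone without 10986. With 1 vehicle array left out, Kit ran from -1.0 to 0.10, Idh2 from -0.17 to 0.00, Cd34 from -0.18 to 2.13, Ccl3 from -1.08 to 0.09, Hmmr from -0.72 to 0.04, Igf2r from -0.12 to 0.58, Cd3e from -0.02 to 0.21 and Acta2 from -0.61 to 0.01. The median of p53 targets ran from -0.57 to -0.10 and of cholesterol genes from 0.01 to 0.38 with 1 array left out, and the former was -0.24 with array weights. The 50th percentile filter moved the median of all genes from 0.03 to -0.11. Signals near the array background, such as those of Trim12a in the fl lines, limit sizes.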

Other observations

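Probe sets that the annotation does not list, and that are unnamed here, also separated the genotypes, without passing the threshold. Probe set 10339602 was at 9.59, 9.64 and 8.54 in the fl lines and at 5.80 and 5.88 in the wt lines under vehicle, a difference of 3.42 (SE 0.37, limma adjusted p = 0.0803 with all probe sets tested). The wt values lie below the filter level of 6.23, so the size is uncertain. On the 4-OHT arrays it was at 9.80, 9.11 and 9.82 against 5.80 and 5.46. Probe set 10343785 differed by 1.40 and 10421186 by 1.28 under vehicle, also without overlap. The wt values of 10421186 lie below that level too.

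The next 4 genes, chosen after their values were seen, were lower in the fl lines without overlap, and none passed under vehicle. Pde3b, a cyclic nucleotide phosphodiesterase, was at 8.60, 8.92 and 8.41 in the fl lines and at 10.07 and 10.82 in the wt lines, a difference of -1.80 (limma adjusted p = 0.13), and it passed under 4-OHT at -1.87 (limma adjusted p = 0.0366). Mgl2, a macrophage lectin, was at 8.09, 9.03 and 7.44 against 10.35 and 10.03. Alox5, the lipoxygenase of leukotriene synthesis, was at 8.34, 8.81 and 8.15 against 9.65 and 10.82. Csf2, which encodes GM-CSF, was at 6.52, 6.27 and 6.23 against 7.52 and 7.53.

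Small nucleolar and other small RNA genes, a group formed after the values were seen, were higher with no overlap in 18 of 60 (30.0%) and lower in 1 (1.67%), against 18.6% and 12.1% of all genes, with a median of 0.18. Under 4-OHT 3 of the 60 were higher and 7 lower, against 12.6% and 14.2% of all genes, with a median of -0.10. The lower count there is thus not above the share of all genes. Snora70 was at 9.99, 10.14 and 9.88 against 9.37 and 9.42, and Rnu12, an RNA of the minor spliceosome, at 9.54, 10.62 and 10.43 against 8.65 and 8.73. Olfactory receptor genes, which leukaemia cells are not known to use, were higher in 43 of 507 (8.48%, against 18.6%) and lower in 0 (against 12.1%). Their median was 0.17, and -0.01 without the array of line 10986.

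The Y-linked genes Eif2s3y, Kdm5d and Uty were present on all 10 arrays. On the vehicle array of line 10986 they were lowest, at 9.64, 9.06 and 8.79. Idh2 and Ptpmt1 differed by -0.10 and -0.30 under vehicle and neither passed.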
